A study of Mus musculus with 8 samples.

Results

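The synaptonemal complex and its HORMA-domain partners were described at the level of RNA in spermatocyte fractions of mice with and without a deletion in Mfn2 in their germ cells. The genes were chosen by name: Sycp1, Sycp2, Sycp3, Syce1, Syce2, Syce3, Tex12, Hormad1, Hormad2 and Trip13, which are 10 of the 54532 genes listed in the deposited table. All 10 names were found, each in 1 row, and all 10 were above 1 FPKM in every library. The study deleted Mfn2, which encodes a mitochondrial outer membrane protein of fusion and of contact with the endoplasmic reticulum, in male germ cells and sequenced RNA from spermatocyte fractions. There were 8 groups with 1 library each: fraction P (pachytene) and fraction L/Z (leptotene and zygotene), genotype WT (Mfn2 loxp/loxp) and cKO (Mfn2 loxp/loxp; Stra8-Cre), and age PD 24 and PD 52 (postnatal days). All were C57BL/6J mice, and WT and cKO animals alike carried floxed Mfn2 alleles. Stra8-Cre expresses the recombinase in male germ cells before and around meiotic entry, so the somatic cells of the testis were not targeted. The fractions were taken by sedimentation in an albumin gradient and judged by cell size and shape, so a fraction could hold other testis cells.

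In the first meiotic prophase the sister chromatids of each chromosome are organised along a protein axis, and the axes of paired homologues are then joined along their length by the synaptonemal complex. SYCP2 and SYCP3 build the axis, SYCP1 forms the transverse filaments that span the gap between axes, and SYCE1, SYCE2, SYCE3 and TEX12 build the central element in which the filaments meet. HORMAD1 and HORMAD2 mark axes that are not yet paired and are removed as pairing proceeds, and TRIP13 is the ATPase that strips HORMA-domain proteins from the axis. Loss of most of these proteins arrests male meiosis.

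Promoter sequence of the genes is shown as background to their levels. RefSeq promoter windows of 300 bases (250 before the transcription start and 50 from it, GRCm38.p6) were found for all 10 genes, 13 windows in all, since Hormad1, Syce2 and Syce3 each have 2. Letters of 5 motifs were searched on both strands: CNCCTCAG, written for STRA8, the factor of meiotic entry; GGCGGGA, an E2F core; TGACGTCA, the cyclic AMP response element; CCAAT, the CCAAT box; and AACNGTC, a MYB core. The STRA8 letters were in 4 of the 13 windows (7.94% of all 32851 promoter windows), which belong to 4 of the 10 genes (9.12% of all genes with a window). The stretches of 30 bases around them are given here, on the strand of the gene, with the match in capitals (the searched letters are on the other strand).
Sycp1, chr3:102936051-102936080, minus strand: ttccaggaggttCTGAGGGGaagctcacgg
Syce2, chr8:84872208-84872237, plus strand: cgcagagggcgCTGAGGCGggaaaagacgg
Tex12, chr9:50561257-50561286, minus strand: gtgctgcggctCTGAGGCGgcaggtcgtgg
Hormad2, chr11:4441173-4441202, minus strand: agcaaggcctgCTGAGGGGccaaccttaga
The matches of Sycp1, Syce2 and Tex12 lay in a non-coding part of an exon of the GENCODE M21 gene model, and that of Hormad2 lay upstream of its gene.

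The E2F core was in 4 of the 13 windows (11.3% of all windows), of Hormad1 (both windows), Tex12 and Syce2. The windows of Hormad1 overlap and hold the same site, so by gene it was 3 of the 10 (12.7% of all genes with a window). Its match in capitals is given for Hormad1 and Tex12, where it lay upstream of the gene.
Hormad1, chr3:95559570-95559599, plus strand: gcgcagcttttGGCGGGAatagtggtctgg
Tex12, chr9:50561396-50561425, minus strand: gggaggaaaaaGGCGGGAagtaaagggaag
Syce2 had 2 such matches, the first of which overlaps the STRA8 letters shown above. The CCAAT letters were in 2 windows (37.4% of all), of Sycp3 and Syce3, the MYB core was in the windows of Hormad1 (8.01% of all), and the cyclic AMP element was in 0 of the 13 (1.79% of all). The 250 bases before the start of Hormad1, the gene with the largest fraction difference among the 10, hold both the E2F core and the MYB core, in capitals.
Hormad1, chr3:95559427-95559676, plus strand: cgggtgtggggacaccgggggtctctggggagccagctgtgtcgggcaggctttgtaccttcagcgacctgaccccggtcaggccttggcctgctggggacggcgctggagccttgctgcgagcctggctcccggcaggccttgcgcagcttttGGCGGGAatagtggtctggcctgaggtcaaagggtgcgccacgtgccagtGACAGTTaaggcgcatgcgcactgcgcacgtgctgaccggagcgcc
These matches are letters in a window, and no binding was measured. A link between the motifs and the levels of the genes was not tested. Median GC content was 61.7% in the 13 windows and 52.7% in all windows.

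The libraries held 14340665 to 20379950 reads on genes, as recovered from the deposited values. The Mfn2 level was 77.1 FPKM in P WT and 39.6 in P cKO, 82.2 in L/Z WT and 34.3 in L/Z cKO at PD 24, and 62.2, 50.1, 97.5 and 47.9 FPKM in the same order at PD 52, lower in cKO in 4 of 4 pairs (log2 difference -0.87, SE 0.19, limma adjusted p = 0.275). In the paper 1 exon of Mfn2 was floxed, so RNA of the rest of the gene can remain in cKO. The fraction labels were checked against 8 lists of marker genes. The 12 genes of mid to late pachytene did not separate the fractions as a list: they summed to 3695 to 5551 FPKM in P and 3229 to 5951 in L/Z, and 4 of 12 were higher in L/Z in WT and 6 of 12 in cKO at PD 24, and 7 of 12 and 9 of 12 at PD 52. Piwil1, one of them, was at 168 to 278 FPKM in the P libraries and at 16.0 to 40.5 in the L/Z libraries. H1fnt, Pgk2, Ccna1 and Spag6 of the same list went the other way and were higher in L/Z in each of the 4 pairs. Pgk2 was at 135 to 277 FPKM in P and at 240 to 651 in L/Z. Of the 11 genes of preleptotene to zygotene, 9 were higher in L/Z in WT and 9 in cKO at PD 24, 8 in WT at PD 52 and 4 in cKO at PD 52. Their sums were 104 FPKM in L/Z WT against 81.7 in P WT and 111 in L/Z cKO against 74.5 in P cKO at PD 24, and 75.2 against 78.7 and 35.3 against 50.9 at PD 52. The cKO pair at PD 52 thus went against its labels by count and by sum, and the WT pair at PD 52 by sum alone, where Spo11 was at 14.8 FPKM in L/Z and 25.8 in P. All 15 spermatid genes were higher in L/Z than in P in each of the 4 pairs, with summed levels of 309 to 5233 FPKM in P and 680 to 20858 in L/Z, the highest in L/Z cKO at PD 52, where Tnp2 reached 6254 FPKM. All 9 Sertoli genes were lower in L/Z in each pair (69.2 to 211 FPKM summed in P, 9.58 to 73.6 in L/Z), and the 7 macrophage genes were higher in L/Z in each pair. Of the other lists, all 8 Leydig genes (sums 20.7 to 261 FPKM in WT, 102 to 666 in cKO) and all 7 macrophage genes (sums 5.88 to 37.6 in WT, 21.4 to 160 in cKO) were higher in cKO in each pair. The 10 spermatogonia genes summed to 51.6 to 179 FPKM, and the 6 peritubular myoid genes to 17.3 to 66.8 FPKM in P and 78.9 to 298 in L/Z. No gene of the 8 lists was at 0 in any library, and Insl3, Lyz2, Cldn11, Ldhc, Spo11, Uchl1 and Myl9 led their lists by mean level. "P" and "L/Z" below are the labels of the fractions.

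**Figure D1:**
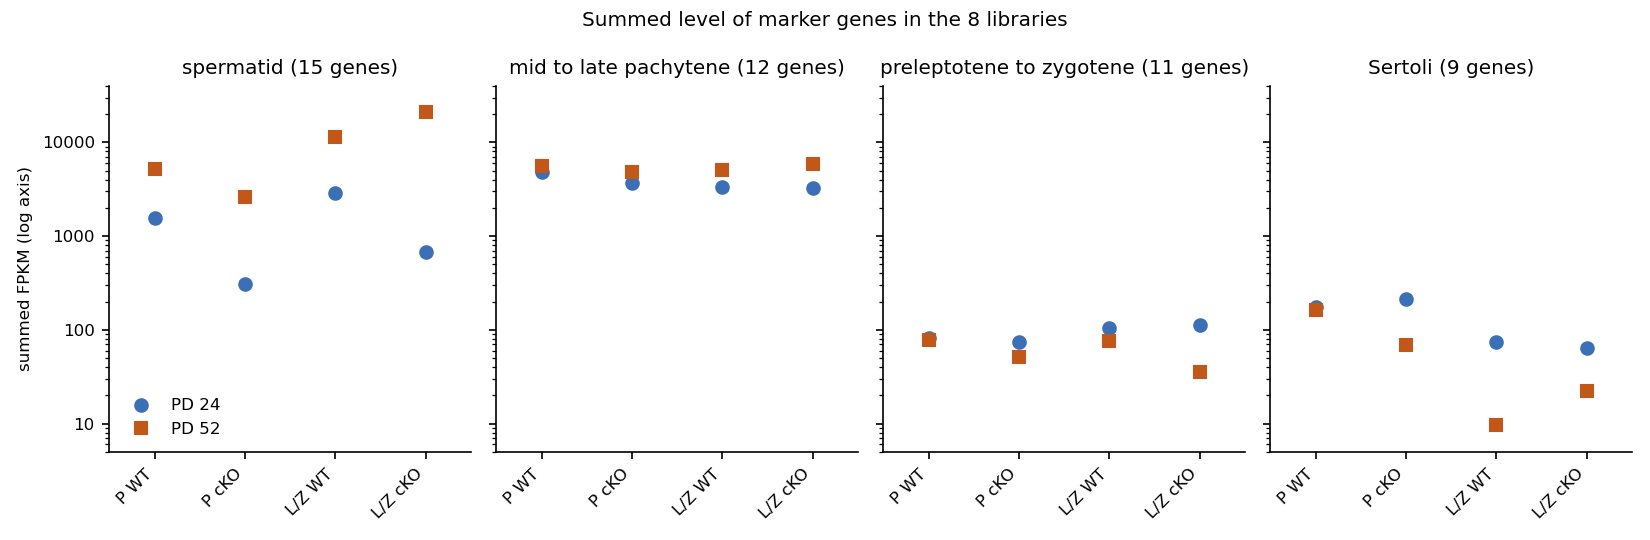
Summed FPKM of 4 lists of marker genes (vertical log axis, shared by the panels) in the 8 libraries, with the fraction and genotype on the horizontal axis, circles for PD 24 and squares for PD 52, 1 library per point. The spermatid sum was above the preleptotene to zygotene sum in all 8 libraries and was highest, at 20858 FPKM, in L/Z cKO at PD 52.

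FPKM are read counts per kilobase of gene model and per library size after the authors' scaling, so levels of different genes can be compared per length. Syce1 was the highest of the 10 genes in all 8 libraries, with a mean of 238 FPKM. The means of Syce3, Sycp2, Sycp3, Sycp1, Hormad1 and Syce2 were 74.1, 59.0, 51.7, 43.4, 36.7 and 33.2 FPKM, and their order changed from library to library. Tex12 had a mean of 12.9 FPKM and stood 7th or 8th in every library, and Hormad2 (6.33) and Trip13 (5.35) took the last 2 places in every library. From Syce3 to Syce2, neighbours in the order of means differed by less than the larger of their SDs over the 8 libraries, which were 31.2 FPKM for Syce3, 25.04 for Sycp2, 17.0 for Sycp3, 6.67 for Sycp1, 16.2 for Hormad1 and 18.6 for Syce2. These SDs run over 8 different groups and are not replicate errors. The steadiest genes were Syce1 and Sycp1, whose highest library was 1.46 and 1.54 times the lowest, and the widest range was that of Tex12, 7.06 times. The range of Tex12 and its rank rest on 1 library, L/Z cKO at PD 52 (3.70 FPKM, 55 reads). Its next lowest library was at 9.14 FPKM.

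**Figure D2:**
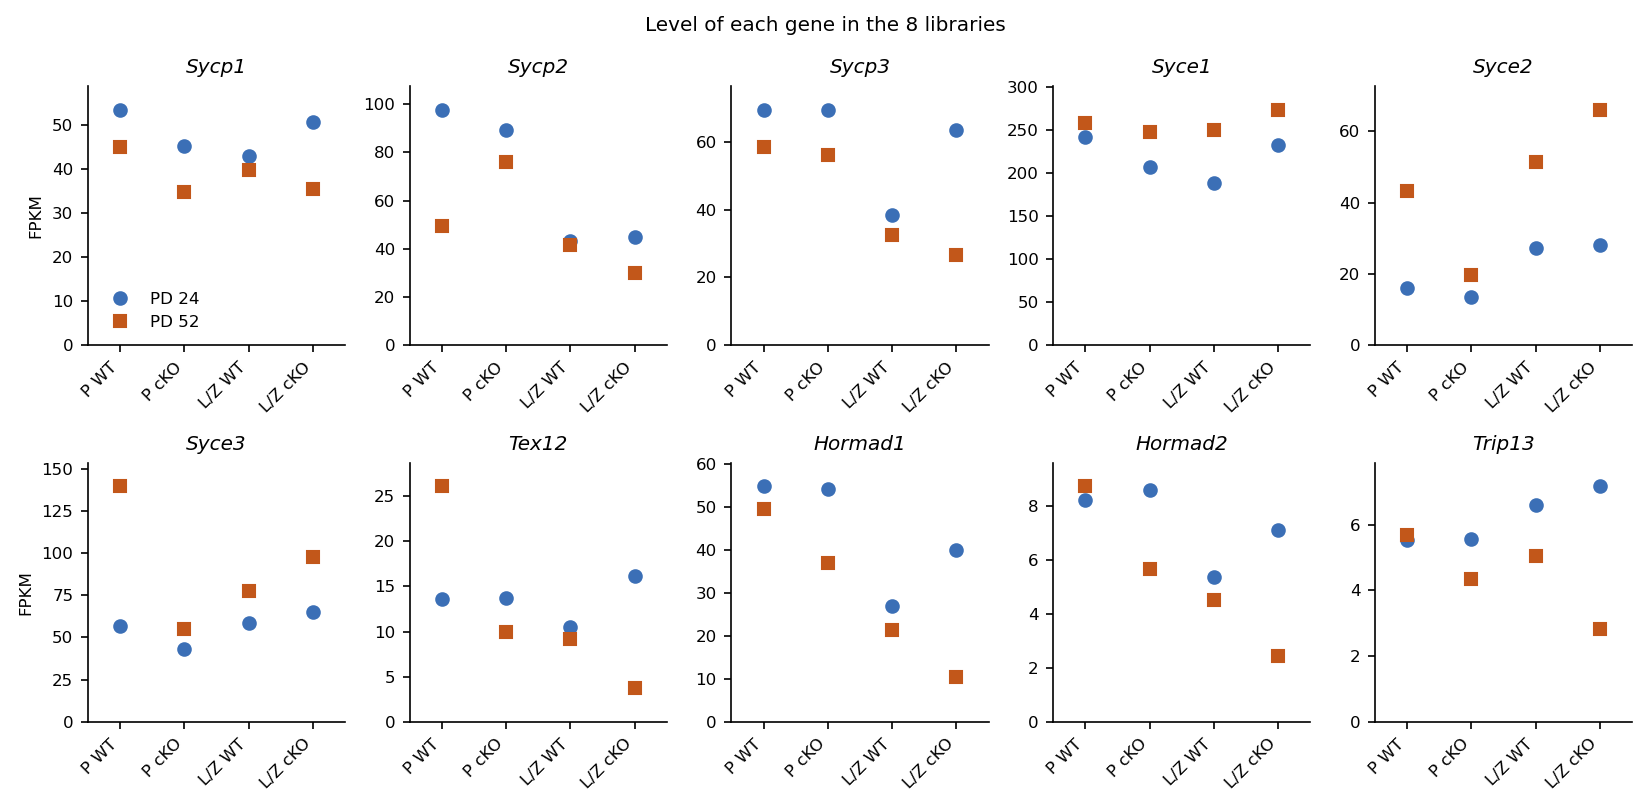
Level of each gene (FPKM, linear axis from 0) by fraction and genotype, with circles for PD 24 and squares for PD 52 and 1 library per point. Sycp2 stood lower in L/Z than in P at both ages and in both genotypes, Syce3 and Tex12 were highest in P WT at PD 52 (140 and 26.1 FPKM), and Tex12, Hormad1, Hormad2 and Trip13 were lowest in L/Z cKO at PD 52.

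Among the axis genes, Sycp2 was at 97.8 FPKM in P WT, 89.1 in P cKO, 43.4 in L/Z WT and 44.7 in L/Z cKO at PD 24. At PD 52 its levels were 49.3, 76.1, 41.5 and 30.1 FPKM in that order. The lowest P library was thus above the highest L/Z library, and P WT at PD 52 was the P library nearest to the L/Z level. The share of all genes with such a separation of the fractions was not computed. Sycp3 was at 69.3 FPKM in P WT, 69.5 in P cKO, 38.4 in L/Z WT and 63.3 in L/Z cKO at PD 24, and at 58.4, 56.1, 32.3 and 26.5 FPKM at PD 52. The P libraries lay close together, while L/Z cKO at PD 24 stood among them and the other L/Z libraries were lower. A share of 52.2% of the exon bases of Sycp3 (660 bases) overlaps exons of Chpt1 on the opposite strand, and the library kit is not stated to keep strand, so reads of that stretch cannot be assigned to 1 gene from the table alone. Chpt1 was at 3.64 to 9.80 FPKM. Its gene model is 8324 bases long against 1264 for Sycp3, so its FPKM are low beside its reads. The part of Chpt1 reads in the level of Sycp3 was not tested.

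Sycp1, the transverse filament gene, was at 53.5 FPKM in P WT, 45.1 in P cKO, 43.0 in L/Z WT and 50.6 in L/Z cKO at PD 24, and at 45.1, 34.7, 39.7 and 35.4 FPKM at PD 52. The levels of the fractions overlapped. Of its 50-base transcript windows 5.47% also occur in other annotated genes, first among them the pseudogene Sycp1-ps1, which was at 0.719 to 3.11 FPKM.

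Of the central element genes, Syce1, whose protein works with SYCE3, was at 243 FPKM in P WT, 208 in P cKO, 188 in L/Z WT and 233 in L/Z cKO at PD 24, and at 259, 248, 250 and 274 FPKM at PD 52. Every PD 52 library was above every PD 24 library, and the share of all genes with such a separation was not computed. Syce3, a small protein that binds SYCP1 and brings the other central element proteins to it, was at 56.5 FPKM in P WT, 43.4 in P cKO, 58.5 in L/Z WT and 64.9 in L/Z cKO at PD 24, and at 140, 54.7, 77.7 and 97.5 FPKM at PD 52. P WT at PD 52 stood above the 7 other libraries.

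SYCE2 and TEX12 assemble with each other into the fibres along the central element, but their RNA levels took different courses. Syce2 was at 16.1 FPKM in P WT, 13.6 in P cKO, 27.4 in L/Z WT and 28.3 in L/Z cKO at PD 24, and at 43.2, 19.7, 51.4 and 66.1 FPKM at PD 52. Tex12 was at 13.6 FPKM in P WT, 13.8 in P cKO, 10.5 in L/Z WT and 16.1 in L/Z cKO at PD 24, and at 26.1, 9.90, 9.14 and 3.70 FPKM at PD 52. L/Z cKO at PD 52 was thus the highest library for Syce2 and the lowest for Tex12, where 55 reads were counted on Tex12.

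The HORMA genes kept a similar order of libraries. Hormad1 was at 54.8 FPKM in P WT, 54.1 in P cKO, 26.8 in L/Z WT and 39.9 in L/Z cKO at PD 24, and at 49.6, 36.9, 21.4 and 10.3 FPKM at PD 52. Hormad2 was at 8.23, 8.59, 5.36 and 7.11 FPKM at PD 24 and at 8.73, 5.67, 4.52 and 2.43 FPKM at PD 52, in the same order. Both genes were highest in a P WT library and lowest in L/Z cKO at PD 52. For Hormad1, 22.9% of the 50-base transcript windows also occur in other annotated genes, first among them the processed pseudogene Gm15529, which was at 1.996 to 5.88 FPKM. Trip13 was at 5.54 FPKM in P WT, 5.57 in P cKO, 6.59 in L/Z WT and 7.18 in L/Z cKO at PD 24, and at 5.69, 4.35, 5.04 and 2.84 FPKM at PD 52, so L/Z stood above P at PD 24 in both genotypes and below it at PD 52 in both.

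The comparison of the fractions asks how the genes differ between the labelled earlier and later stage of prophase. Axis and HORMA genes were lower in L/Z than in P: Hormad1, Sycp2, Sycp3 and Hormad2 fell, each in 4 of 4 pairs of libraries of the same genotype and age. Syce2 rose in L/Z, also in 4 of 4 pairs. With limma on log2(FPKM + 1) and the pair as a block, the L/Z minus P difference was -1.09 (SE 0.22, adjusted p = 0.0124) for Hormad1 and -0.92 (SE 0.21, adjusted p = 0.0170) for Sycp2. The difference was -0.71 (SE 0.19, adjusted p = 0.0304) for Sycp3, -0.64 (SE 0.17, adjusted p = 0.0277) for Hormad2 and 0.92 (SE 0.24, adjusted p = 0.0278) for Syce2. Mean levels were 48.9 FPKM in P and 24.6 in L/Z for Hormad1, and 23.2 in P and 43.3 in L/Z for Syce2.

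The remaining 5 genes did not pass. Tex12 had a difference of -0.69 (SE 0.28, adjusted p = 0.104), lower in L/Z in 3 of 4 pairs, and Syce3 one of 0.15 (95% interval -0.49 to 0.80). The 95% intervals of Sycp1 (-0.44 to 0.29), Syce1 (-0.42 to 0.36) and Trip13 (-0.43 to 0.38) reached to either side of 0. In all, 4 of the 10 genes were called lower against 12.4% of the 21175 genes tested, and 1 of the 10 was called higher against 16%. The median difference of the 10 genes was -0.36, that of all genes tested 0.04.

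Within single pairs, Sycp2 and Hormad1 were at least 2-fold lower in L/Z in WT at PD 24 (2 of 10 genes, against 8.03% of all genes at least 2-fold lower there), and Tex12 and Hormad1 in WT at PD 52 (2 of 10, against 9.9%). In cKO at PD 24, Syce2 was at least 2-fold higher (1 of 10, against 11.8%). In cKO at PD 52, Sycp2, Sycp3, Tex12 and Hormad1 were at least 2-fold lower (4 of 10, against 9.41%) and Syce2 was 3.35-fold higher (1 of 10, against 15.3%). The difference furthest below 0 in any of these pairs was that of Hormad1 in cKO at PD 52, -1.74 on the log2(FPKM + 1) scale (95% counting interval -1.93 to -1.56).

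The 5 calls rest on 4 pairs. With the WT PD 24 pair or the cKO PD 52 pair left out, limma called 0 genes of the whole table (6466 and 6960 had an unadjusted p under 0.05), while the differences of the 5 genes kept their sign and ranged over the 4 leave-one-out fits from -1.31 to -0.87 for Hormad1, -1.15 to -0.79 for Sycp2, -0.91 to -0.60 for Sycp3, -0.77 to -0.53 for Hormad2 and 0.66 to 1.14 for Syce2. Without the cKO PD 24 pair Hormad1, Hormad2 and Sycp3 were called, without the WT PD 52 pair Sycp2 and Syce2, and with no filter on low values 0 of the 5 were (adjusted p 0.0509 to 0.0876), and without the pair block Hormad2 was not (adjusted p = 0.0662, with 0.0257 to 0.0710 over its 5 alternatives). The spermatid, macrophage and Sertoli lists differed between the fractions in the same 4 pairs, and their part in these differences was not tested. In a fraction of mixed cells, fewer cells of a type and less RNA per cell cannot be told apart.

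**Figure D3:**
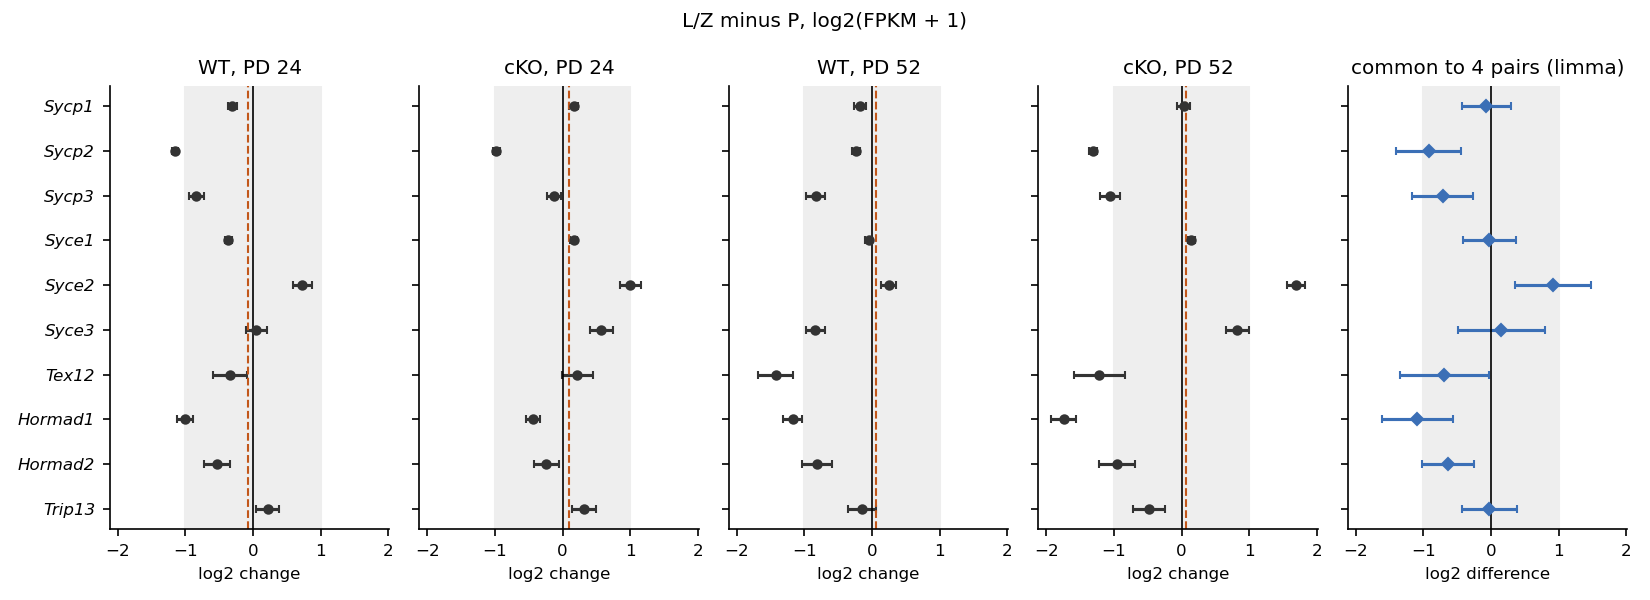
Difference of L/Z minus P in log2(FPKM + 1) for each gene in the 4 pairs of libraries (points, with 95% counting intervals) and common to the 4 pairs by limma (diamonds, with 95% intervals). The grey band marks less than 2-fold and the dashed line the median of all genes. Hormad1, Hormad2, Sycp2 and Sycp3 lay below 0 and Syce2 above 0 in each pair.

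Genes of the same pathway from a wider list (38 axis, cohesin, central element, recombination and telomere attachment genes found by name, 36 of them tested) were called in both directions between the fractions. Higher in L/Z were 7 of 36 (against 16% of all genes), led by Tex15 (1.14, SE 0.19, adjusted p = 0.00637), a recombination gene, Rec8 (0.89, adjusted p = 0.00808), the meiotic kleisin of cohesin, and Tex11 (0.89, adjusted p = 0.0431), a recombination gene of the X chromosome. Lower in L/Z were 9 of 36 (against 12.4%), led by Cdk2 (-1.64, SE 0.17, adjusted p = 0.00311), the kinase found at meiotic telomeres, Ccnb1ip1 (-1.22, adjusted p = 0.00419), the crossover factor HEI10, and Majin (-1.11, adjusted p = 0.00379), which attaches telomeres to the nuclear envelope. The median of the 36 was -0.11. For genotype, limma called 0 of 36 (1 had an unadjusted p under 0.05), against 0.137% of all genes. For age, Rec8 rose at PD 52 (0.92, adjusted p = 0.0149), which made 1 of 36 higher (against 11.9% of all genes), and Smc1a (-1.01, adjusted p = 0.0156), a cohesin subunit, Cdk2 (-0.69, adjusted p = 0.0412) and Meiob (-0.58, adjusted p = 0.0494), a recombination gene, fell, which made 3 of 36 lower (against 5.41% of all genes called lower).

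The genotype comparison asks how these genes differ between cKO and WT. No gene of the 10 was called for a difference between cKO and WT common to the 4 pairs. Limma called 0 of the 10, and 0 of the 10 had an unadjusted p under 0.05 (29 of 21175 genes, 0.137%, were called in either direction). Voom on recovered reads also called 0 of the 10. Mfn2 itself, lower in cKO in 4 of 4 pairs (-0.87), was not called by limma either (adjusted p = 0.275). The 0 calls thus do not show that these genes are unchanged. The differences ran from -0.46 for Tex12 (95% interval -1.25 to 0.33) to 0.09 for Sycp3 (-0.38 to 0.57), with a median of -0.21 against -0.04 for all genes. On this scale the interval of Tex12 reaches past 2-fold lower, and those of the other 9 genes stay within 2-fold.

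Single pairs differed more than the average. In P at PD 24 and in L/Z at PD 24, 0 of the 10 genes differed at least 2-fold (against 8.08% and 10.5% of all genes, either way). All 10 genes were higher in L/Z cKO than in L/Z WT at PD 24, by 0.04 to 0.71 in log2(FPKM + 1) (8 of 10 with further scaling, where Sycp2 and Syce2 were just below 0), with a median of 0.27 against 0.08 for all genes, of which 57.0% were higher. The largest of these was that of Sycp3, 0.71 (95% counting interval 0.59 to 0.83). In the same pair 0 of the 15 spermatid genes were higher in cKO (sum 2873 FPKM in WT and 680 in cKO), while all 10 spermatogonia genes (126 and 179), all 8 Leydig genes (36.8 and 207) and all 7 macrophage genes (37.6 and 117) were. In the P pair at PD 24 too, 0 of the 15 spermatid genes were higher in cKO (1542 and 309). The part of these cells was not tested.

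At PD 52 most of the genes were lower in cKO. In P, 9 of 10 were lower (7 of 10 with further scaling, where Sycp3 and Syce1 were just above 0), with a median of -0.39 against -0.05 for all genes, and 3 of 10 were at least 2-fold lower (against 5.78% of all genes): Syce3 by 1.34 log2 units (0.392-fold, counting interval -1.49 to -1.18), Tex12 by 1.32 (0.379-fold) and Syce2 by 1.09 (0.457-fold). These are 3 of the 4 central element genes among the 10, and the WT library of this pair was the highest of all 8 for Syce3 and Tex12. With further scaling between libraries Syce2 was 0.99 lower and no longer 2-fold, which leaves 2 of 10. Syce1, the fourth, was at 259 FPKM in P WT and 248 in P cKO. Sycp2 was 0.62 higher in P cKO (counting interval 0.56 to 0.67). In L/Z, 7 of 10 were lower, with a median of -0.37 against 0.02 for all genes, and Tex12 was at least 2-fold lower (1 of 10, against 3.12%), at 3.70 against 9.14 FPKM.

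In L/Z at PD 52 the HORMA genes and Trip13 were also lower in cKO, Hormad1 by 0.98 (counting interval -1.19 to -0.78), Hormad2 by 0.69 and Trip13 by 0.65, while Syce1, Syce2 and Syce3 were 0.13, 0.36 and 0.32 higher. The counting intervals cover reads and not animals, and no p-value is given for a pair of single libraries. In the P pair at PD 52, the spermatid sum was 5233 FPKM in WT and 2592 in cKO (13 of 15 genes lower), the spermatogonia sum 115 and 58.8, the preleptotene to zygotene sum 78.7 and 50.9, the Sertoli sum 161 and 69.2 and the Leydig sum 261 and 666. In the L/Z pair the spermatid sum was 11540 and 20858, the preleptotene to zygotene sum 75.2 and 35.3 and the macrophage sum 21.1 and 160. The part of these cells in the differences was not tested.

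**Figure D4:**
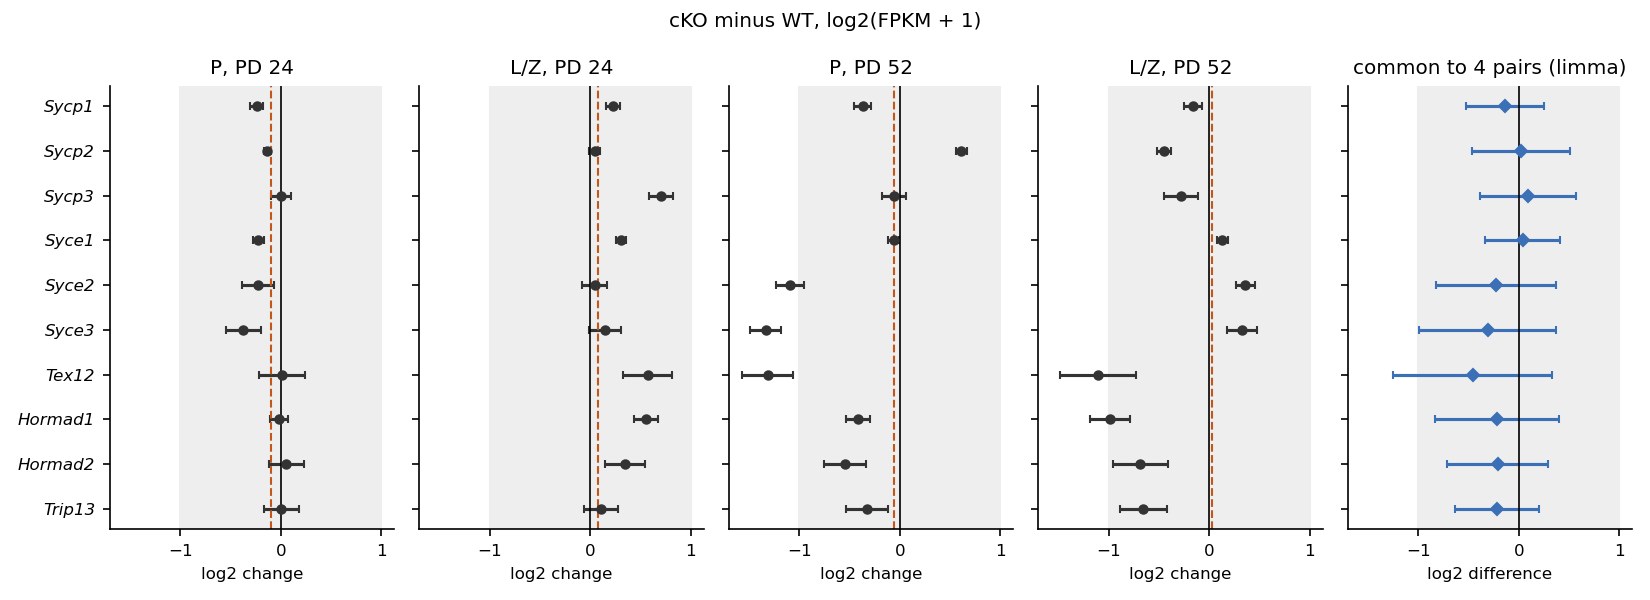
Difference of cKO minus WT in log2(FPKM + 1) for each gene in the 4 pairs of libraries (points, with 95% counting intervals) and common to the 4 pairs by limma (diamonds, with 95% intervals). The grey band marks less than 2-fold and the dashed line the median of all genes. Syce2, Syce3 and Tex12 lay outside the band in P at PD 52 and Tex12 in L/Z at PD 52.

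No gene of the 10 passed the test for a genotype difference that changed with age. Tex12 came nearest: it was 0.01 (counting interval -0.22 to 0.25) and 0.57 higher in cKO at PD 24 (P and L/Z) and 1.32 and 1.11 lower at PD 52. Its difference between ages was -1.51 (SE 0.25, limma adjusted p = 0.0578), which missed the threshold in a fit with 1 residual degree of freedom. For Hormad1 that difference was -0.97 (SE 0.32, adjusted p = 0.211) and for Hormad2 -0.82 (SE 0.27, adjusted p = 0.202). Limma called 0 of the 10 (3 had an unadjusted p under 0.05), against 1.25% of all genes either way. With a pseudocount of 0.1 Tex12 passed (adjusted p = 0.0234), while without the other interactions its adjusted p was 0.462, so over the 3 alternatives its adjusted p ran from 0.0234 to 0.462.

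For the difference of the fraction effect between ages, 0 of the 10 genes were called (1 had an unadjusted p under 0.05, 0.00945% of all genes were called), and the value furthest from 0 was again that of Tex12, -1.25 (SE 0.25, adjusted p = 0.215). Syce1, Syce2 and Syce3 were lower in cKO in P and higher in cKO in L/Z at both ages, though with further scaling Syce1 in P at PD 52 and Syce2 in L/Z at PD 24 changed sign. The difference of the genotype effect between fractions was 0.36 (SE 0.16) for Syce1, 0.86 (SE 0.33) for Syce2 and 1.09 (SE 0.31) for Syce3, with adjusted p = 0.481, 0.409 and 0.312. This test was added after the values were seen, and limma called 0 of the 10 (2 had an unadjusted p under 0.05) and 0% of all genes.

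Age was compared in the 4 pairs of the same fraction and genotype. Syce2 rose from PD 24 to PD 52, in 4 of 4 pairs, by 0.99 (SE 0.18, adjusted p = 0.0205), from a mean of 21.3 to 45.1 FPKM. It was the single call among the 10 genes, against 11.9% of all genes called higher. Of the other central element genes among the 10, Syce3 and Syce1 were higher at PD 52 in 4 of 4 pairs without passing the threshold (0.65, SE 0.19, adjusted p = 0.0636, and 0.25, SE 0.11, adjusted p = 0.149). Tex12 was lower in 3 of 4 (-0.40, adjusted p = 0.496). All 15 spermatid genes were also higher at PD 52 in each of the 4 pairs, with sums 3.39, 8.38, 4.02 and 30.7 times those at PD 24 in P WT, P cKO, L/Z WT and L/Z cKO, and their part in the difference of Syce2 was not tested. Sycp1, Sycp2, Sycp3 and Hormad1 were lower at PD 52 in 4 of 4 pairs, with differences of -0.31, -0.45, -0.50 and -0.71 and adjusted p of 0.126 to 0.147. The median of the 10 genes was -0.41 against 0.00 for all genes tested.

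In single pairs, Syce2 and Syce3 were at least 2-fold higher at PD 52 in P WT (2 of 10, against 9.43% of all genes). In P cKO and in L/Z WT 0 of the 10 genes differed at least 2-fold (against 18.9% and 13.3% either way). In L/Z cKO, Sycp3, Tex12, Hormad1, Hormad2 and Trip13 were at least 2-fold lower (5 of 10, against 12.6%) and Syce2 was 2.34-fold higher (1 of 10, against 18.8%). Tex12 was furthest apart there, at 16.1 and 3.70 FPKM (0.229-fold), followed by Hormad1, at 39.9 and 10.3 FPKM (0.259-fold). In that pair the spermatid sum was 680 FPKM at PD 24 and 20858 at PD 52 and the spermatogonia sum 179 and 51.6. The preleptotene to zygotene sum was 111 and 35.3 (0 of 11 genes higher at PD 52) and the mid to late pachytene sum 3229 and 5951. The Sertoli sum was 63.5 and 22.0, the Leydig sum 207 and 102, the macrophage sum 117 and 160 and the peritubular myoid sum 298 and 78.9. The part of these cells was not tested. The call of Syce2 was kept with the P WT pair left out (adjusted p = 0.0411) and lost with each of the other 3 pairs left out (adjusted p up to 0.134), where limma called 0 genes of the table (5016 to 5714 at an unadjusted p under 0.05). It was lost as well with no filter on low values (adjusted p = 0.0561), and its difference stayed between 0.86 and 1.15 over the leave-one-out fits.

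Ratios within a library do not depend on the scaling between libraries. The ratio of Hormad1 to Hormad2, per length, kept between 4.25 and 6.66 in the 8 libraries, and that of Sycp2 to Sycp3 between 0.706 and 1.41. The ratio of Syce2 to Tex12 was 1.18 in P WT, 0.989 in P cKO, 2.60 in L/Z WT and 1.75 in L/Z cKO at PD 24, and 1.65, 1.99, 5.62 and 17.9 at PD 52. It thus spanned 18.1-fold, against 1.57-fold for the HORMA pair and 1.998-fold for the axis pair. The top of that span is 1 library, L/Z cKO at PD 52, with 55 reads on Tex12, and the next highest ratio was 5.62. The ratio of Hormad1 to Trip13 was 8.48 to 9.90 in the P libraries and 3.64 to 5.56 in the L/Z libraries, with no overlap. These ratios are descriptions of 8 libraries without a test.

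**Figure D5:**
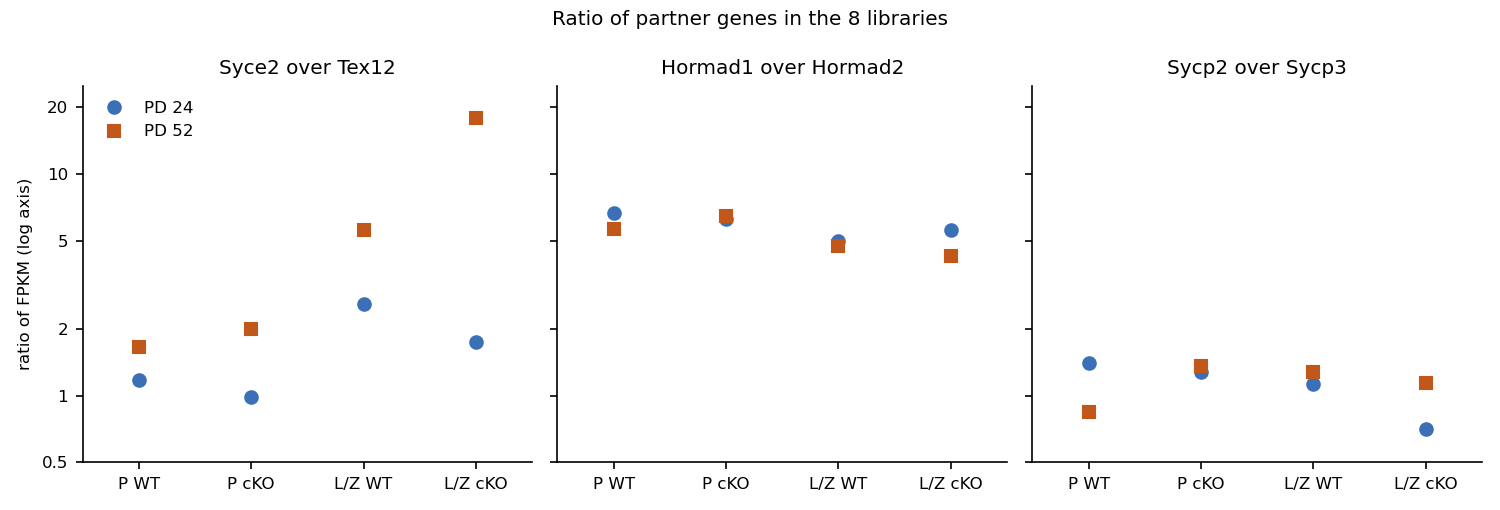
Ratio of the FPKM of partner genes (vertical log axis, shared) by fraction and genotype, with circles for PD 24 and squares for PD 52 and 1 library per point. Syce2 over Tex12 reached 17.9 in L/Z cKO at PD 52, while Hormad1 over Hormad2 stayed between 4.25 and 6.66 and Sycp2 over Sycp3 between 0.706 and 1.41.

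Likeness of profiles was measured as the Euclidean distance between log2(FPKM + 1) values over the 8 libraries, centred on each gene's mean. Among the 10 genes the nearest pair was Sycp3 and Hormad2 (0.53), followed by Sycp1 and Trip13 (0.60) and by Hormad1 and Hormad2 (0.79). From the mean profile of the 10, Sycp1 was nearest (0.51) and Syce2 farthest (2.48). Of 8748 other genes with a mean above 5 FPKM, the 8 nearest to that mean profile were Uba2, Prelid3b, Ndufa9, Nudt3, Slc25a20, Exosc9, Mospd3 and Pes1 (0.18 to 0.27). Uba2 encodes a subunit of the SUMO-activating enzyme, Ndufa9 a subunit of respiratory complex I, Slc25a20 the mitochondrial carrier of acylcarnitines, Exosc9 a subunit of the RNA exosome and Pes1 a factor of ribosome assembly. Uba2 was at 31.6, 30.6, 25.5 and 32.2 FPKM in P WT, P cKO, L/Z WT and L/Z cKO at PD 24 and at 35.4, 26.6, 22.9 and 20.2 FPKM at PD 52.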

How the data were processed

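RNA-seq had been run on 8 libraries of spermatocyte fractions, 1 per group, from total RNA with a kit not stated to keep strand. The authors deposited 1 table of FPKM per gene. The submitters' notes list Bowtie 0.12.2 and CASAVA 1.4 and the builds mm8 and mm9, while 98.1% of the gene coordinates equal those of GENCODE M21 (GRCm38). The aligner that made this table is not given in the sources used here. Every FPKM was a whole multiple of the value of 1 read (100% of values within 0.05 reads), which gave the reads per gene, 14340665 to 20379950 per library, and showed that the deposited FPKM carry size factors of 0.882 to 1.23. The authors' comparisons between groups were not used.

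Values were analysed as log2(FPKM + 1), which understates changes of low genes, for the 21175 genes above 1 FPKM in at least 1 library. Differences common to the 4 pairs of a factor were tested with limma 3.58.1 (pair as block, moderated with a trend, 3 residual degrees of freedom), and differences of effects between ages or fractions in 1 fit with the 3 two-way interactions. P-values were adjusted by Benjamini-Hochberg over all genes tested, with a threshold of 0.05. The 3 factors were read from the same 8 libraries. No source says whether a library pooled animals, or whether P and L/Z of a genotype and age came from the same animals. The pairs may therefore not be independent. With 1 library per group, the p-values of the common differences measure how far a difference varied between the pairs. They do not measure the spread between animals or replicate libraries. The methods describe WT controls as littermates with 1 or 2 floxed alleles. Changes within a pair have a 95% counting interval (Clopper-Pearson), which covers counting error only. The genotype fit was also run on simulated reads with a uniform genotype change and no fraction, age or interaction differences. Those reads lack the variation between pairs seen here, so the run does not bear on the calls reported.

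The 10 genes, the gene lists and the tests were chosen with earlier results of these data known. Named besides the 10 were Mfn2, up to 3 genes of a wider list per test and direction (those called with the largest change), the highest gene of each marker list, and the 8 genes nearest to the mean profile. Piwil1, H1fnt, Pgk2, Ccna1, Spag6 and the partner and pseudogenes were named after their values were seen. Meiob, Mei4 and Rec114 are in both the wider list and the preleptotene to zygotene list. Alternatives were a pseudocount of 0.1, no filter, a further median-of-ratios scaling, no pair block, voom on recovered reads, a 1.5-fold threshold and each pair left out. The rest was computed with Python 3.11.15, pandas 2.3.3 and scipy 1.17.1.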

Additional observations from a re-analysis of the deposited data

Results flagged for a closer look

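With 1 library per group, no sample could be tested against replicates of its group. A gene was listed here where both pairs of one age (or fraction) moved one way and both pairs of the other moved the opposite way. The difference between ages, cKO minus WT, was -1.51 for Tex12 (limma adjusted p = 0.0578), -0.82 for Hormad2 (adjusted p = 0.202), -0.55 for Trip13 (adjusted p = 0.369) and -0.52 for Sycp3 (adjusted p = 0.413), each higher in cKO in both fractions at PD 24 and lower in both at PD 52. Several of the PD 24 differences in P were as small as 0.01 and within their counting intervals, so their sign alone carries little. The difference between ages of L/Z minus P was -0.58 for Trip13 (adjusted p = 0.407). The difference between fractions of cKO minus WT was 1.09 for Syce3 (adjusted p = 0.312), 0.86 for Syce2 (adjusted p = 0.409) and 0.36 for Syce1 (adjusted p = 0.481). With further scaling the sign pattern was lost for Sycp3 (P, PD 52), Syce1 (P, PD 52) and Syce2 (L/Z, PD 24). None of these 8 differences passed the threshold.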

How the results depend on the processing

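No paired analysis by replicate number was possible because every group has 1 library and the labels number no replicates; the pairs here share fraction, genotype or age. Single libraries limit all results. For the 10 genes, the fraction calls went from 5 to 0 and the age call from 1 to 0 with no filter, the age calls were 2 with voom (Syce3 passed), and a pseudocount of 0.1 gave 1 call (Tex12) for the genotype difference between ages. With a pair left out, the fraction calls ranged from 0 to 3 and the age calls from 0 to 1.

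Over all genes, the genotype calls (29) were 7 with a pseudocount of 0.1, 0 with no filter, 3 without the pair block, 135 with voom and 0 with any pair left out. The fraction calls (6013) were 3010 with no filter and 0 to 5000 with a pair left out, and the age calls (3669) were 791 and 0 to 3937. Calls for the genotype difference between ages (265) were 991 with a pseudocount of 0.1 and 1 without the other interactions, and those for the fraction difference between ages (2) were 20 and 0.

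Genes at least 2-fold apart (of 10) went from 3 to 2 for genotype in P at PD 52 with further scaling (Syce2 lost). With a 1.5-fold threshold they were 1 for genotype in L/Z at PD 24, 4 in L/Z at PD 52 (2 with a pseudocount of 0.1), 4 for L/Z against P in WT at PD 24 (1 with further scaling), 2 in cKO at PD 24, 5 in WT at PD 52, and 4 for age in P WT and 1 in L/Z WT. No median of the 10 genes in a pair changed sign or moved by more than their SD.

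Some differences changed sign. Most were near 0 in the main fit, but cKO minus WT of Syce3 was -0.31 there and PD 52 minus PD 24 of Tex12 was -0.40. With further scaling, L/Z minus P was 0.015 for Sycp1, 0.064 for Syce1 and 0.051 for Trip13, and with voom 0.0010 for Syce1 and 0.034 for Trip13. The genotype difference between ages was 0.067 for Syce1 with further scaling, and that between fractions -0.082 for Hormad1 and -0.0033 for Hormad2 with further scaling and -0.015 for Hormad1 with a pseudocount of 0.1. With a pair left out, cKO minus WT ranged from -0.18 to 0.18 for Sycp2, -0.11 to 0.22 for Sycp3, -0.051 to 0.12 for Syce1, -0.42 to 0.059 for Syce2, -0.52 to 0.033 for Syce3 and -0.47 to 0.039 for Hormad1. L/Z minus P then ranged from -0.15 to 0.0045 for Sycp1, -0.090 to 0.086 for Syce1, -0.072 to 0.48 for Syce3 and -0.14 to 0.13 for Trip13, and PD 52 minus PD 24 from -0.83 to 0.091 for Tex12. The cause of these changes was not tested.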
